A study of Mus musculus with 10 samples.

Results

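The expression of 10 voltage-gated calcium channel subunit genes was examined in the hair cells of the adult mouse cochlea, of the inner (IHC) and the outer (OHC) type. The genes were taken by their symbols from a table of 48440 genes: Cacna1c and Cacna1d, which encode pore-forming alpha1 subunits of L-type channels, Cacnb1 to Cacnb4, which encode the 4 beta subunits, and Cacna2d1 to Cacna2d4, which encode the 4 alpha2delta subunits. RNA-seq was performed on 2 libraries of IHCs and 3 of OHCs from untreated CBA/J mice that the labels describe as adult and 28 to 32 days old. No allele or agent set the groups apart, and both came from the dissociated organ of Corti. In the labels, the number before the strain and the second index sequence differ between the cell types and are shared within each. What the number stands for is not given, and a technical difference along this split cannot be told apart from cell type. Each library was made from about 1000 cells that were picked one by one with a suction pipette by their shape, pooled from several mice, and sequenced in 2 lanes. IHCs are the receptors that drive most fibres of the auditory nerve, and OHCs change length with voltage and amplify the vibration.

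Voltage-gated calcium channels open when the membrane depolarizes. The alpha1 subunit forms the pore and carries the voltage sensor, the beta subunit binds it from the cytoplasm and promotes its delivery to the membrane, and the alpha2delta subunit sits on the outer face and raises the number of channels at the surface. In IHCs, calcium entry through CaV1.3, the channel built on the product of Cacna1d, triggers the release of glutamate at ribbon synapses, and mice without Cacna1d are deaf. In mouse hair cells the beta subunit encoded by Cacnb2 and the alpha2delta subunit encoded by Cacna2d2 have been tied to the size of the calcium current.

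The level of a gene was measured as RPKM, which divides the reads of a gene by its transcript length in kilobases and by the mapped reads of the lane in units of 1 M, and the value of a library is the mean of its 2 lanes. Of the 10 genes, 8 had at least 0.1 RPKM in at least 2 libraries and were tested, and Cacna1c and Cacna2d1 were below this minimum. With limma on log2(RPKM + 0.1), two-sided, with Benjamini-Hochberg adjustment over 16462 genes and a threshold of 0.05, 3 of the 8 tested genes were higher in IHCs (Cacnb2, Cacnb4 and Cacna2d3). Cacna1d and Cacna2d4 were higher in OHCs, and Cacnb1, Cacnb3 and Cacna2d2 did not pass the test. Over all genes tested, 34.4% were called higher in IHCs and 34.4% higher in OHCs, so 3 of 8 in one direction and 2 of 8 in the other lie close to the background of the table. The median log2 difference, coded as IHC minus OHC, was 0.07 over the 8 genes and -0.01 over all genes tested.

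**Figure D1:**
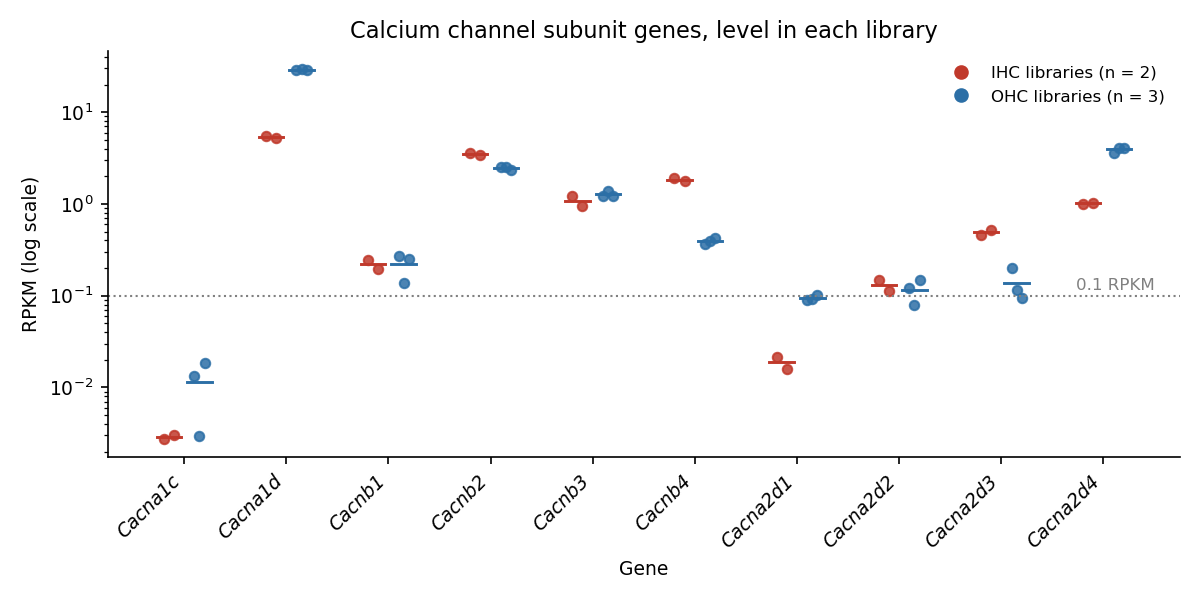
RPKM on a log axis of the 10 calcium channel subunit genes in each of the 2 IHC (red) and 3 OHC (blue) libraries, with a short line at the mean of each cell type and a dotted line at 0.1 RPKM. Cacna1d was the highest of the 10 genes in all 5 libraries, and its OHC libraries sit near 29 RPKM against about 5 in IHCs.

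Few facts of the whole series bear on these values. The RPKM values of a library rest on 19987044 to 23083994 mapped reads, a number inferred from the values themselves, and whole reads could be recovered with it. Of the mapped reads, 92.81% and 92.78% fell in listed genes in the IHC libraries and 86.68%, 86.75% and 86.68% in the OHC libraries. The libraries carried the defining markers of their labels. Of the IHC markers Otof, Slc17a8, Slc7a14, Calb2 and Ednrb, 5 of 5 were higher in IHCs, against 34.4% of all genes tested. Their summed level was 5401 to 5475 RPKM in IHCs against 298.8 to 310.0 in OHCs. Most of this was Calb2, with means of 5120 and 287.3 RPKM. Conversely, 5 of 5 OHC markers (Slc26a5, Ocm, Chrna9, Chrna10 and Lmod3) were higher in OHCs, against 34.4% of all genes tested. Their summed level was 14120 to 15040 RPKM in OHCs against 426.2 to 447.2 in IHCs. Most of this was Ocm, with means of 13010 and 384.9 RPKM. Each bulk value is an average over picked cells, so fewer cells of a type and less RNA per cell cannot be told apart. According to the authors, both cell types were collected from each mouse, so IHC and OHC libraries may share mice. Which mice went into which library is not given in the sources used here, and a p-value here reflects only how far these libraries lie apart.

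Genes listed as markers of other cells were detected, and the sums of their lists differed between the groups. The counts below stand against 34.4% of all genes tested called higher in IHCs and 34.4% higher in OHCs. With so few genes, counts such as those for neurons and glia say little about a list. Of 8 neuron markers, 3 were higher in IHCs, 3 were higher in OHCs, 1 did not pass the test and Prph had no reads, and their summed level was 64.1 to 66.9 RPKM in IHCs and 35.8 to 36.3 RPKM in OHCs. Of 10 blood markers, 9 were higher in OHCs, with a sum of 1645 to 1758 RPKM against 349.6 to 362.0 RPKM, and Ptprc was below the minimum. Of 8 muscle markers, 5 were higher in OHCs and the skeletal muscle gene Ckm had no reads; the sum was 9.12 to 11.4 RPKM against 1.12 to 1.95 RPKM. Of 6 glial markers, 1 was higher in IHCs and 3 in OHCs (sum 54.5 to 55.7 and 110.9 to 122.4 RPKM), and of 6 supporting cell markers, 4 were higher in IHCs and 2 in OHCs (sum 991.6 to 992.4 and 553.1 to 560.3 RPKM). Of 11 markers of fibrocytes, stria and vessels, 1 was higher in IHCs and 7 in OHCs (sum 163.5 to 165.6 and 360.5 to 389.5 RPKM). Whether these reads came from other cells or from the hair cells was not tested. Their part in the results on the channel genes was not tested either.

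The pore-forming subunit gene Cacna1d (ENSMUSG00000015968) lies on the minus strand of GRCm38 at chr14:30039939-30491455, with 52 merged exons in the GENCODE M21 annotation. Its level was 5.46 and 5.25 RPKM in the 2 IHC libraries and 28.8, 29.4 and 29.2 RPKM in the 3 OHC libraries. The groups did not overlap, and libraries of one cell type lay close together. The mean was 5.35 ± 0.148 RPKM in IHCs (SD, n = 2) and 29.1 ± 0.315 RPKM in OHCs (SD, n = 3), a level 5.44-fold higher in OHCs. The log2 difference was -2.42 (SE 0.04, 95% interval -2.52 to -2.33, limma adjusted p = 3.8e-07). These levels rest on 2110 reads in IHCs and 17231 reads in OHCs. Among the genes tested, Cacna1d stood at the 60.2 and 60.7 percentile of the IHC libraries and at the 87.7 to 87.9 percentile of the OHC libraries.

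RefSeq (GRCm38.p6) gives Cacna1d a pair of starts, and the window of 250 bases before and 50 after each is shown because this gene carried the largest difference among the 10 genes. RPKM per gene does not tell which start was used. Capitals mark TATAAA, the core of the TATA box, in the first sequence and CAGCTG, an E-box of the kind that basic helix-loop-helix factors such as ATOH1 bind, in the second, on either strand.
Cacna1d, chr14:30491107-30491406, minus strand: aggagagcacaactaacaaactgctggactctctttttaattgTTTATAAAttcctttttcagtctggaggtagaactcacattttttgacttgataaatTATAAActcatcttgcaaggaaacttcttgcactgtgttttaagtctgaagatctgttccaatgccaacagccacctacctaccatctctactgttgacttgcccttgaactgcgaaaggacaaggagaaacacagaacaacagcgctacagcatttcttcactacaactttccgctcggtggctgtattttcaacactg
Cacna1d, chr14:30353437-30353736, minus strand: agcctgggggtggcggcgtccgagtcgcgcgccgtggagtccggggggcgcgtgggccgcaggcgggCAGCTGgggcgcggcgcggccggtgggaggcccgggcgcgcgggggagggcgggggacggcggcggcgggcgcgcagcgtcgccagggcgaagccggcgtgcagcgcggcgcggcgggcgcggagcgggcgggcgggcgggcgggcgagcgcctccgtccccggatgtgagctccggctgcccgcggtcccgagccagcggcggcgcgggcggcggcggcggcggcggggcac

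The first window is the outer one, holds 40.3% G and C and has TATAAA 3 times, at positions -207, -205 and -150 from the start, of which the first 2 overlap on opposite strands. The second window starts within the gene, holds 87.3% G and C and has CAGCTG once, at -183. The median over all promoters of this length was 53% G and C. Of 32544 such promoters, 13.6% held TATAAA and 16.4% held CAGCTG on either strand. The letters TAATTA, bound by homeodomain factors, occur in 5.29% of them, and GTTGCC, part of the X-box of RFX factors, in 12.4%. Neither was found in the 17 promoters of the 9 channel genes that RefSeq matched, whereas CAGCTG was found in 6 of the 17, belonging to Cacna1c, Cacna1d, Cacnb2 (2 of its promoters), Cacnb4 and Cacna2d3. A match is a description of the letters and no evidence of binding.

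The end of Cacna1d shares 589 exon bases with Chdh, which encodes choline dehydrogenase and runs on the opposite strand at chr14:30009023-30040527. Chdh was at 0.238 ± 0.0471 RPKM in IHCs (SD, n = 2) and 1.71 ± 0.112 RPKM in OHCs (SD, n = 3), with a log2 difference of -2.43 (limma adjusted p = 4.3e-05). It was counted with 62 reads in IHCs and 676 in OHCs, against 2110 and 17231 for Cacna1d. The sources used here do not say whether the counting used strand, so reads from the shared bases cannot be told apart.

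Cacna1c (ENSMUSG00000051331, chr6:118587240-119196418, minus strand) encodes the pore of CaV1.2, the L-type channel of heart and smooth muscle. It had 1 read in each IHC library and 5, 1 and 6 reads in the OHC libraries. The pooled level was 0.00288 RPKM in IHCs, with an exact 95% Poisson interval of 0.000349 to 0.0104, and 0.0115 RPKM in OHCs, with an interval of 0.00594 to 0.0201. The intervals overlap and cover counting error only, and a difference was not detectable at this depth.

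Of 8 further alpha1 genes, only Cacna1g, which encodes a T-type channel that opens at low voltage, reached the minimum for the test. It was at 0.160 and 0.160 RPKM in IHCs and at 0.5, 0.399 and 0.350 RPKM in OHCs. The groups did not overlap (2.61-fold higher in OHCs, log2 difference -0.98, 95% interval -1.45 to -0.52, limma adjusted p = 0.00479). Cacna1a had 43 reads in IHCs and 51 in OHCs, and Cacna1e had 10 and 19. Cacna1b, the N-type channel of neurons, had 15 reads in IHCs and 0 in OHCs, and Cacna1f, the L-type channel of photoreceptor synapses, had 0 in IHCs and 37 in OHCs. Without the minimum, the log2 difference was 0.434 for Cacna1b (limma adjusted p = 0.0292 over 19961 genes) and -0.685 for Cacna1f (adjusted p = 0.0369). Cacna1a and Cacna1e did not pass that fit (adjusted p = 0.425 and 0.862). Cacna1h, Cacna1i and Cacna1s, the last the skeletal muscle channel, had 0 reads in all libraries, and a count of 0 allows up to 3 reads per library. Cacna1d made up 94.6% and 95% of the summed RPKM of the 10 alpha1 genes in IHCs and 97.7%, 98.3% and 98.2% in OHCs. In each of the 5 libraries, then, one gene held nearly all of the alpha1 level. The shares differed by -3.30 percentage points (exact permutation test, two-sided, p = 0.1, the smallest p that 10 splits allow).

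**Figure D2:**
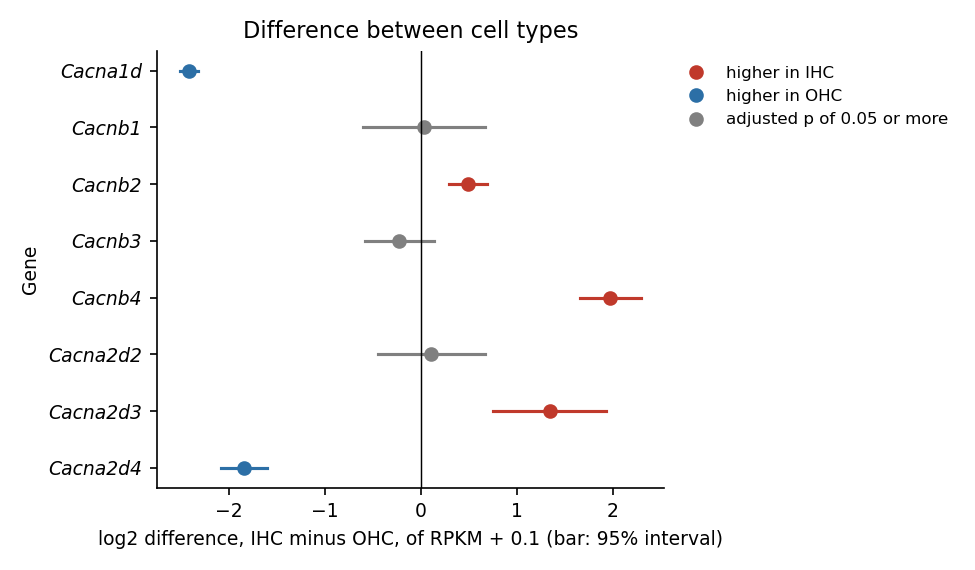
Log2 difference of RPKM + 0.1, IHC minus OHC, of the 8 tested genes, with 95% intervals from limma; red marks genes called higher in IHCs, blue those called higher in OHCs and grey those with an adjusted p of 0.05 or more. Cacna1d (-2.42) and Cacna2d4 (-1.85) lie left of 0, and Cacnb4 (1.97), Cacna2d3 (1.34) and Cacnb2 (0.49) lie right of it.

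Among the beta subunit genes, Cacnb2 had the highest level in both cell types and was higher in IHCs. Cacnb2 (ENSMUSG00000057914) lies on the plus strand at chr2:14603088-14987908. It was at 3.56 and 3.42 RPKM in IHCs and at 2.55, 2.52 and 2.32 RPKM in OHCs, so every IHC library was above every OHC library. The mean was 3.49 ± 0.0964 RPKM in IHCs (SD, n = 2) and 2.46 ± 0.129 RPKM in OHCs (SD, n = 3), 1.42-fold higher in IHCs. The log2 difference was 0.49 (SE 0.08, 95% interval 0.29 to 0.68, limma adjusted p = 0.00255). Of the genes annotated within it on the opposite strand, the antisense gene Gm13269, which shares 239 exon bases with Cacnb2, had 69 reads in IHCs and 35 in OHCs. The pseudogene Gm10849, with 618 shared bases, had 0 and 33 reads, against 1779 and 1891 reads for Cacnb2.

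Cacnb4 (ENSMUSG00000017412, chr2:52428320-52676831, minus strand), best known from the brain and from the epileptic lethargic mouse that lacks it, showed the largest difference in favour of IHCs among the 8 tested genes, though not in the second lanes, where Cacna2d3 had a log2 difference of 1.44 and Cacnb4 one of 0.83. The level was 1.90 and 1.79 RPKM in IHCs and 0.362, 0.398 and 0.425 RPKM in OHCs, without overlap. The mean was 1.84 ± 0.0795 RPKM in IHCs (SD, n = 2) and 0.395 ± 0.0314 RPKM in OHCs (SD, n = 3), 4.66-fold higher in IHCs. The log2 difference was 1.97 (SE 0.13, 95% interval 1.66 to 2.29, limma adjusted p = 6.03e-05).

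The size of this difference depended on the lane. In the first lanes Cacnb4 had 318 reads in IHC replicate 1 and 259 in IHC replicate 2, but in the second lanes of the same libraries it had 60 and 67. OHC replicate 1 had 49 and 26 reads, OHC replicate 2 had 37 and 38, and OHC replicate 3 had 45 and 31. The first lane was thus 5.33-fold and 3.87-fold above the second in the IHC libraries and 1.87-fold in OHC replicate 1. In the 4 other channel genes with at least 50 reads in a library, the ratio of lanes was 0.755 to 1.28 over 20 values. IHCs were above OHCs in either lane, with 3.02 against 0.456 RPKM in the first lanes (6.62-fold) and 0.667 against 0.334 RPKM in the second (2-fold). The log2 difference was 2.49 from the first lanes (limma adjusted p = 3.44e-05), 0.83 from the second lanes (adjusted p = 0.0292), and 2.55 without the second lanes of both IHC libraries and OHC replicate 1 (adjusted p = 1.25e-05), a choice made after seeing the data.

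Another gene, A430018G15Rik, a processed transcript on the plus strand at chr2:52425012-52434885, shares 1433 exon bases with the end of Cacnb4. It had 265 and 496 in IHC replicate 1, 247 and 443 in IHC replicate 2, 45 and 68 in OHC replicate 1, 45 and 37 in OHC replicate 2, and 37 and 37 in OHC replicate 3 in the first and second lanes. In both IHC libraries and OHC replicate 1 its reads rose where those of Cacnb4 fell, and in OHC replicate 3 they did not move. Added up, the 2 genes had 583 and 556, 506 and 510, 94 and 94, 82 and 75, and 82 and 68 reads in the lanes of these 5 libraries. In both IHC libraries and OHC replicate 1, the sums of the 2 lanes were closer to each other than the reads of Cacnb4 were. In OHC replicate 2 they were not. In OHC replicate 3 sums and Cacnb4 reads lay equally far apart in reads, though the sums were closer as a ratio. Per 1 M mapped reads, the sum was 51.2 and 49.9 in the IHC libraries and 8.14, 7.47 and 7.50 in the OHC libraries, again without overlap. A430018G15Rik itself was at 19.9 ± 0.135 RPKM in IHCs (SD, n = 2) and 2.43 ± 0.374 RPKM in OHCs (SD, n = 3), with a log2 difference of 2.99 (limma adjusted p = 1.05e-05). Which of the 2 genes the reads in the shared exons came from cannot be told apart with the counting as deposited.

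**Figure D3:**
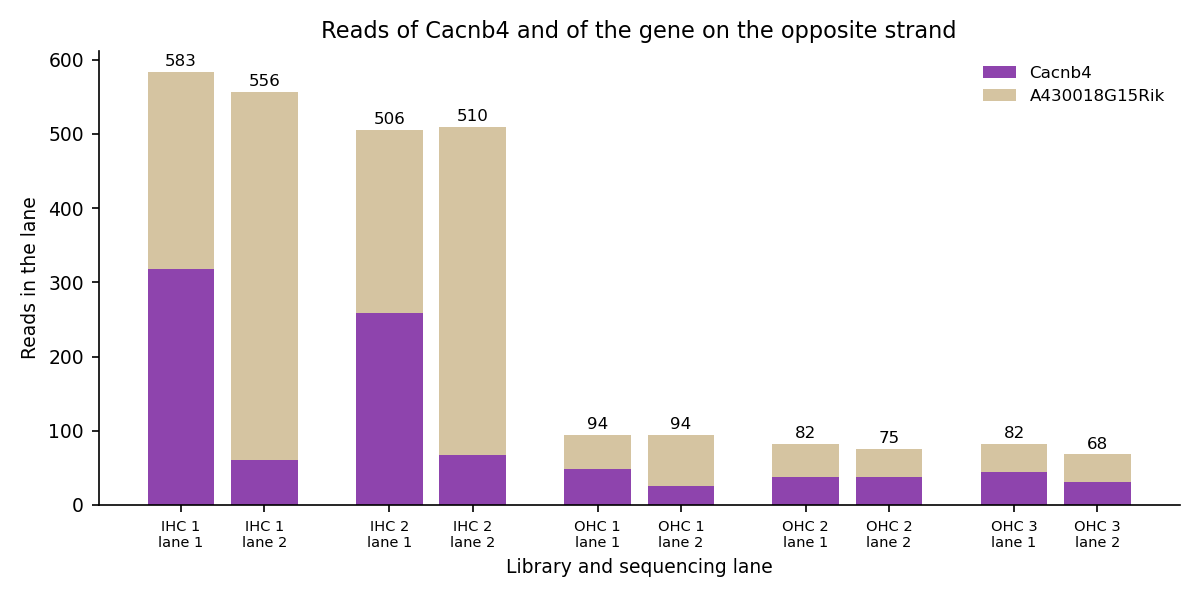
Reads of Cacnb4 (purple) and of A430018G15Rik (tan), the gene on the opposite strand, in each of the 10 lanes, stacked, with their sum above each bar. In both IHC libraries the purple part falls from lane 1 to lane 2 (318 to 60 and 259 to 67 reads), while the sums stay between 506 and 583.

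Cacnb3 and Cacnb1 did not pass the test. Cacnb3 (ENSMUSG00000003352, chr15:98630840-98644529) was at 1.22 and 0.944 RPKM in IHCs and at 1.24, 1.37 and 1.22 RPKM in OHCs, with groups that touch (log2 difference -0.23, 95% interval -0.58 to 0.13, limma adjusted p = 0.209). Cacnb1 (ENSMUSG00000020882, chr11:98001508-98023034), the beta subunit of skeletal muscle, was at 0.248 and 0.195 RPKM in IHCs and at 0.268, 0.137 and 0.254 RPKM in OHCs. The groups overlapped (log2 difference 0.03, 95% interval -0.60 to 0.67, adjusted p = 0.918), with 43 and 64 reads. Differences within this interval remain compatible with these libraries.

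Among the alpha2delta genes, Cacna2d4 was the highest in both cell types. Cacna2d4 (ENSMUSG00000041460, chr6:119236526-119352407, plus strand), whose loss in mice impairs photoreceptor synapses, was at 1.01 and 1.02 RPKM in IHCs and at 3.57, 4.11 and 4.11 RPKM in OHCs. The groups did not overlap. The mean was 1.02 ± 0.00717 RPKM in IHCs (SD, n = 2) and 3.93 ± 0.312 RPKM in OHCs (SD, n = 3), 3.87-fold higher in OHCs. The log2 difference was -1.85 (SE 0.10, 95% interval -2.09 to -1.61, limma adjusted p = 2.5e-05), from 410 reads in IHCs and 2378 in OHCs. Lrtm2, a gene for a leucine-rich repeat membrane protein that lies inside Cacna2d4 on the opposite strand (chr6:119315133-119330766), shares no exon bases with it. It was at 32.0 ± 0.0645 RPKM in IHCs (SD, n = 2) and 133.5 ± 4 RPKM in OHCs (SD, n = 3), 4.17-fold higher in OHCs (limma adjusted p = 4.37e-07).

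Cacna2d3 (ENSMUSG00000021991, chr14:28904943-29721864, minus strand), a subunit of neuronal channels, went the other way. It was at 0.462 and 0.518 RPKM in IHCs and at 0.199, 0.116 and 0.0949 RPKM in OHCs. Both IHC libraries were above all OHC libraries (3.59-fold, log2 difference 1.34, SE 0.24, 95% interval 0.75 to 1.93, limma adjusted p = 0.00348). The value rests on 77 reads in IHCs and 33 in OHCs, and 13 of the 17 reads of OHC replicate 1 came from its first lane.

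Cacna2d2 (ENSMUSG00000010066, chr9:107399612-107529343, plus strand) was at 0.149 and 0.114 RPKM in IHCs and at 0.122, 0.0783 and 0.149 RPKM in OHCs. These overlapped (log2 difference 0.10, 95% interval -0.45 to 0.66, limma adjusted p = 0.698), with 34 and 45 reads. The interval runs from 0.730-fold to 1.58-fold, so differences within these bounds remain compatible with these libraries. Cacna2d1 (ENSMUSG00000040118, chr5:15934691-16374511, plus strand), an alpha2delta subunit of muscle and of neurons, was at 0.0217 and 0.0158 RPKM in IHCs and at 0.0907, 0.0920 and 0.101 RPKM in OHCs. The libraries did not overlap, with 10 reads in IHCs and 75 in OHCs and exact 95% Poisson intervals of 0.00906 to 0.0348 and 0.0741 to 0.118 RPKM. Only 1 library reached 0.1 RPKM, so the gene was left out of the test; without the minimum its log2 difference was -0.71 (limma adjusted p = 0.00658 over 19961 genes).

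The order of the levels per length differed between the cell types. In IHCs it ran from Cacna1d through Cacnb2, Cacnb4, Cacnb3, Cacna2d4, Cacna2d3, Cacnb1, Cacna2d2 and Cacna2d1 to Cacna1c, and of neighbours in this order only Cacnb3 and Cacna2d4 overlapped between libraries. In OHCs it ran from Cacna1d through Cacna2d4, Cacnb2, Cacnb3, Cacnb4, Cacnb1, Cacna2d3, Cacna2d2 and Cacna2d1 to Cacna1c. There Cacnb1 overlapped with Cacna2d3, Cacna2d3 with Cacna2d2, and Cacna2d2 with Cacna2d1. The place of Cacnb4 in IHCs depended on the lane: in the second lanes its mean of 0.667 RPKM was below those of Cacnb3 (1.10 RPKM) and Cacna2d4 (1.001 RPKM).

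Sums over the subunit classes moved in different directions. The 10 alpha1 genes summed to 5.65 ± 0.173 RPKM in IHCs (SD, n = 2) and 29.7 ± 0.214 RPKM in OHCs (SD, n = 3), and the 4 beta genes to 6.64 ± 0.412 and 4.35 ± 0.123 RPKM. The 4 alpha2delta genes summed to 1.66 ± 0.0175 RPKM in IHCs and 4.28 ± 0.258 RPKM in OHCs. The beta sum was thus 1.20 and 1.15 times the alpha1 sum in the IHC libraries and 0.150, 0.148 and 0.142 times in the OHC libraries. The alpha2delta sum was 0.285 and 0.302 times the alpha1 sum in IHCs and 0.135, 0.147 and 0.150 times in OHCs, and 0.237 and 0.263 against 0.901, 0.992 and 1.06 times the beta sum. None of these ratios overlapped between cell types (exact permutation test, two-sided, p = 0.1 for each, the smallest p the 10 splits allow). Such ratios do not depend on the scaling of a library, but they rest on the length by which each gene was divided and describe RNA, not subunits in channels.

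Within the beta class, Cacnb2 held 51.3% and 53.9% in IHCs and 57.8%, 56.9% and 55% in OHCs (p = 0.2 by the same exact permutation test). The difference of -3.93 percentage points was -13.4 from the first lanes, 8.69 from the second and -10.9 from reads not divided by length, so its direction turned with the lane. Cacnb4 held 27.4% and 28.2% in IHCs and 8.20%, 8.99% and 10.1% in OHCs, a difference of 18.7 percentage points that was 28.8 from the first lanes and 4.33 from the second. Cacnb3 held 17.7% and 14.9% in IHCs against 28.0%, 31.0% and 28.9% in OHCs, a difference of -13 points that was -5.10 from reads not divided by length. Shares of a class add up to the whole, so they are not independent, and the share of a gene also moves with the other genes. The level of Cacnb3 itself did not pass the test. The share of Cacnb1, 3.58% and 3.08% against 6.06%, 3.08% and 6.02%, overlapped (exact permutation p = 0.3).

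Within the alpha2delta class, the IHC libraries had a more even make-up. Cacna2d4 held 61.5% and 61.2% in IHCs and 89.7%, 93.5% and 92.3% in OHCs, a difference of -30.5 percentage points. Cacna2d3 held 28.1% and 31.1% in IHCs and 5.00%, 2.64% and 2.13% in OHCs, a difference of 26.4 points. From reads not divided by length these differences were -16.7 and 13.2 points. Cacna2d2 held 9.05% and 6.81% against 3.06%, 1.78% and 3.34%, and Cacna2d1 held 1.32% and 0.949% against 2.28%, 2.09% and 2.26%. The level of Cacna2d2 itself did not pass the test. The shares of these 4 genes and of Cacnb3 and Cacnb4 did not overlap between cell types (exact permutation p = 0.1 for each of the 6, the smallest possible). The share of Cacnb2 did not overlap either, with an exact permutation p of 0.2. In all, 12 shares and ratios were compared, and with 10 splits none could pass 0.05 before or after adjustment.

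**Figure D4:**
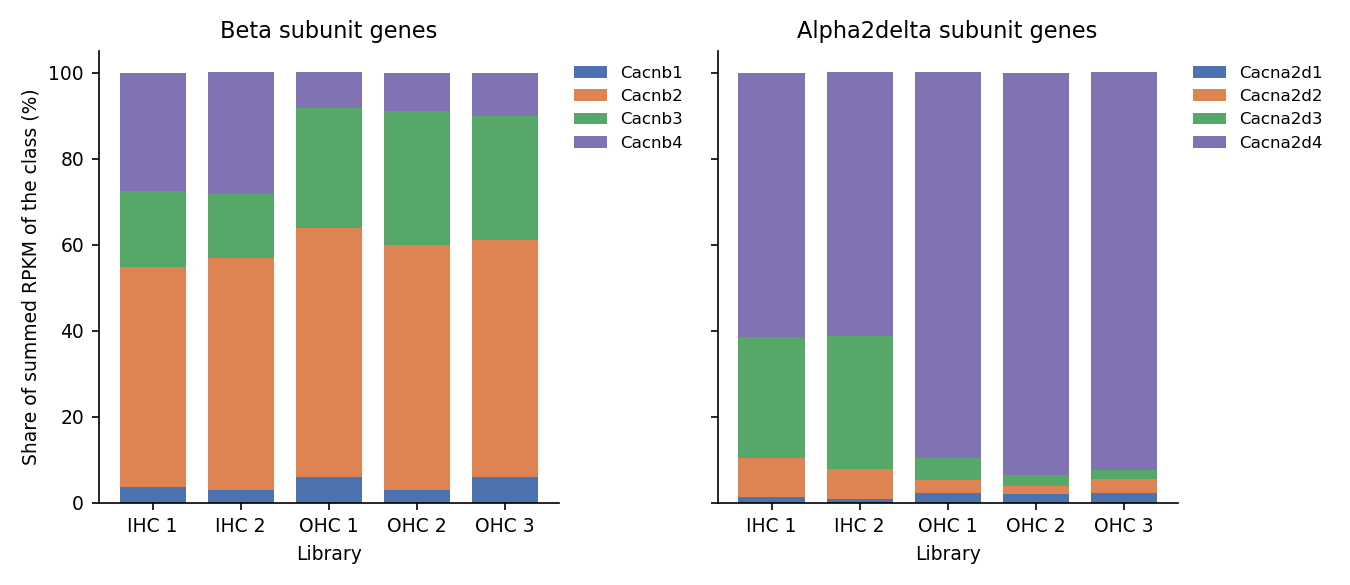
Share in percent of the summed RPKM of the 4 beta genes (left) and of the 4 alpha2delta genes (right) held by each gene in each library. Cacnb4 takes 27.4% and 28.2% in the IHC libraries and at most 10.1% in OHCs, and Cacna2d3 takes 28.1% and 31.1% in IHCs and at most 5.00% in OHCs.

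Of 9 gamma subunits and relatives, 2 were tested and both were higher in OHCs, against 34.4% of all genes tested. Cacng5, whose product modulates AMPA receptors in neurons, was at 0.258 and 0.243 RPKM in IHCs and at 29.7, 31.4 and 30.1 RPKM in OHCs, 121.3-fold higher (log2 difference -6.44, limma adjusted p = 8.02e-08). Tmem37, which encodes a gamma-like membrane protein, was at 3.67 and 3.59 RPKM in IHCs and 32.2, 28.4 and 27.6 RPKM in OHCs (8.10-fold, log2 difference -2.98, adjusted p = 1.9e-06). In OHCs both were about as high as Cacna1d. Cacng1, the gamma subunit of the skeletal muscle channel, Cacng3, Cacng7 and Cacng8 had 0 reads, and Cacng2, Cacng4 and Cacng6 were below the minimum, with 0, 7 and 1 reads in IHCs and 9, 24 and 0 in OHCs.

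Of 24 genes whose products bind or tune the channel, 18 were tested. Of these, 14 were higher in IHCs, against 34.4% of all genes tested, 3 (Gem, Cbarp and Stac2) were higher in OHCs, against 34.4% of all genes tested, and Rimbp2 did not pass. The list was chosen with earlier results of these data known, and its share was not tested against other genes. Their median log2 difference was 0.85, against -0.01 over all genes tested. Cabp1, a calcium-binding protein that slows the inactivation of CaV1.3, was at 12.4 RPKM in both IHC libraries and at 0.269, 0.236 and 0.477 RPKM in OHCs (37.8-fold, log2 difference 4.91, limma adjusted p = 2.1e-05). Cabp4, a relative needed at photoreceptor synapses, was at 2.20 and 2.81 RPKM in IHCs and had 1 read in all OHC libraries together, against 152 in IHCs (log2 difference 4.55, adjusted p = 1.97e-05). Rims2, an active zone scaffold that binds the channel, was at 7.06 and 7.03 RPKM in IHCs and 0.163, 0.141 and 0.168 RPKM in OHCs (44.7-fold, log2 difference 4.80, adjusted p = 1.93e-06). All 3 were far above the spread between libraries. The highest gene of the list was Calm2, which encodes calmodulin, the sensor of calcium-dependent inactivation, at 12700 and 13120 RPKM in IHCs and 4337, 4442 and 4540 RPKM in OHCs (log2 difference 1.54, adjusted p = 1.74e-06).

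Of the 3 modulator genes higher in OHCs, Gem, a small GTPase that inhibits the channel through the beta subunit, had 0 reads in IHCs and was at 1.13, 1.02 and 0.974 RPKM in OHCs, at least 15.5-fold higher when IHCs were set to 3 reads per library (limma adjusted p = 1.38e-05). Cbarp, which encodes a protein that binds beta subunits and lowers the current, was at 0.216 and 0.187 RPKM in IHCs and at 1.07, 0.943 and 0.832 RPKM in OHCs (4.70-fold, log2 difference -1.79, adjusted p = 0.000216). Stac2, an adaptor of L-type channels, was at 0.0574 and 0.0313 RPKM in IHCs and 0.207, 0.318 and 0.175 RPKM in OHCs (log2 difference -1.19, adjusted p = 0.00705), from 6 and 47 reads. Rimbp2, which links the channel to the release machinery, was at 0.758 ± 0.0658 RPKM in IHCs (SD, n = 2) and 0.665 ± 0.0628 RPKM in OHCs (SD, n = 3), with a log2 difference of 0.17 and a 95% interval of -0.18 to 0.52 (adjusted p = 0.333). Cabp5, Rrad and Stac3 had 0 reads, and Bzrap1, Rims1 and Dpp10 were below the minimum.

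**Figure D5:**
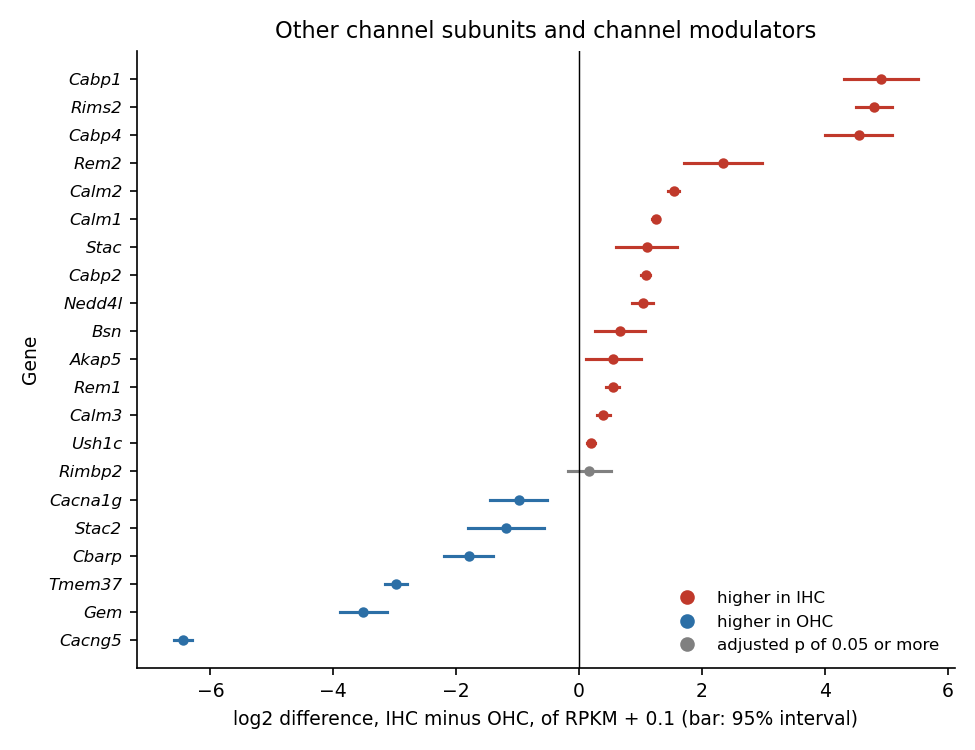
Log2 difference of RPKM + 0.1, IHC minus OHC, with 95% intervals from limma, of the tested genes among the other alpha1 genes (Cacna1g), the gamma genes (Cacng5, Tmem37) and 18 channel modulators. Cabp1, Rims2 and Cabp4 lie between 4.55 and 4.91, and Cacng5 lies at -6.44.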

How the data were processed

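RNA of picked cells was amplified with a SMARTer or SMART-Seq kit and sequenced with paired ends on an Illumina HiSeq. The authors mapped reads to GRCm38 with CLC Genomics Workbench (version not given in the sources used here), derived gene estimates with HTSeq count and deposited RPKM values per lane, of which 10 columns were used. Whether counting used strand is not given. Lanes were averaged per library, and the library was the replicate (2 IHC, 3 OHC). Values were compared as log2(RPKM + 0.1) with limma 3.58.1 in R 4.3.3 with the variance trend, 3 residual degrees of freedom, two-sided, with Benjamini-Hochberg adjustment, keeping genes that reached 0.1 RPKM in 2 or more libraries. A fold is the ratio of mean RPKM, while the pseudocount makes the log2 difference of low genes smaller. The fit was also run on counts simulated around the mean of each gene, with the same dispersion for all genes. That simulation had no lanes or overlapping genes, so it does not bear on the limits these set.

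Reads were recovered as RPKM times length times the mapped reads of the lane. The mapped reads were inferred from the ratios of RPKM between lanes, as the smallest whole numbers that fit them. Of 19961 detected genes, 14235 gave whole reads, within 0.001, with the exon length of the GENCODE M21 annotation; for 5726 the length was itself found from the values, among them Cacna1c, Cacna1d, Cacnb2, Cacnb3, Cacna2d2 and Cacna2d3. RPKM divides by these lengths. Poisson intervals and the floor of 3 reads per library cover counting error only. Shares and ratios were compared by exact permutation of 5 libraries (10 splits, Python 3.11.15 with scipy 1.17.1).

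The channel genes, the gene lists and their tests were chosen with earlier results of these data known. All 10 genes are named; of the other channel and modulator lists, up to 3 called genes of largest difference in each direction, the highest and those below the minimum; marker lists are given by counts and sums, and 1 marker of OHCs is not reported here. Neighbouring genes were chosen after their values were seen. Alternatives were other pseudocounts, filters, scalings, lanes, priors, voom on recovered reads, a replicate block and leaving out each library.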

Additional observations from a re-analysis of the deposited data

How the results depend on the processing

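The 5 channel genes called were called in the same direction under each of the 19 alternatives that tested them (18 for Cacna2d3, which a minimum of 1 RPKM removed, leaving 2 genes higher in IHCs). Their log2 differences ranged from -2.47 to -2.25 for Cacna1d, 0.38 to 0.58 for Cacnb2, 0.83 to 2.55 for Cacnb4, 0.39 to 1.84 for Cacna2d3 and -1.94 to -1.29 for Cacna2d4. Without a minimum, Cacna2d1 made 3 genes higher in OHCs. Cacnb1, not called, changed sign to -0.18 with the second lanes, -0.00906 with 10 lanes and duplicateCorrelation, and -0.09 and -0.17 without IHC replicate 1 and OHC replicate 2 (range over left-out libraries -0.171 to 0.151). Cacna2d2 went to -0.005 and -0.0275 there (range -0.0275 to 0.214). Voom on the recovered reads called 5867 genes higher in IHCs and 5740 in OHCs.

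The difference in the share of Cacna1d was -4.12 with the first lanes, -2.50 with the second, -1.49 without genes under 0.1 RPKM, -3.96 from reads not per length and -4 without the second lanes of 3 libraries. For Cacnb4 these were 28.8 (first), 4.33 (second), 17.0 (reads) and 29.3 (without the 3 lanes), and for Cacna2d4 -16.7, Cacna2d3 13.2 and Cacnb3 -5.10 (reads). The share of Cacnb2 turned to 8.69 with the second lanes. From reads, the difference in the alpha2delta to alpha1 ratio was 0.0924 in place of 0.149. The difference in the beta to alpha1 ratio was 1.21 with the first lanes, 0.840 with the second, 1.06 without genes under 0.1 RPKM and 1.21 without the 3 lanes; leaving out each library gave 1 to 1.05. The share of Cacna2d1 has no value once genes under 0.1 RPKM are dropped. The cause of these shifts was not tested. The setting without the second lanes of 3 libraries was chosen after seeing the data. The replicate number as a block changed no call (Cacna1d -2.42, limma adjusted p = 0.000164). Deviations of IHC and OHC libraries with the same number had correlations of 0.0125 and -0.0197. With 2 IHC libraries these values are not independent, and they cannot show whether libraries shared mice. Cacna1c, Cacnb1, Cacna2d1, Cacna2d2 and the called gene Cacna2d3, with 2 to 77 reads per cell type, are limited by depth.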
